A study of Mus musculus with 21 samples.

Results

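The genes described here encode enzymes and regulators of lipid synthesis, 21 of the sterol arm and 12 of the fatty acid arm. They were picked by gene symbol as members of these pathways, with earlier results of these data known. All 33 were found in the epithelial table (23869 genes) and in the fibroblast table (21170 genes), among 25035 genes listed in at least 1 of them and 20004 listed in both. In mouse lung 29 of the 33 were higher in epithelium than in fibroblasts over 5 stages, where 32.5% of all genes tested were higher and 29.9% lower. Elovl6, which lengthens palmitate to stearate, was lower in epithelium, where it had 18 reads over all libraries. It entered that test through its fibroblast levels. Across birth, from E18.5 to P0.5, the desaturase genes Scd1 and Scd2 fell in both cell types. In epithelium Scd1 rose again after P0.5 and ended above its level at E18.5, while Scd2 was still lower at P28 than at E18.5.

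Sterol synthesis starts from acetyl-CoA, passes through mevalonate and isoprenoid diphosphates to squalene, and ends after closure of the sterol rings with a series of reductions and demethylations that give cholesterol. Fatty acid synthesis uses cytosolic acetyl-CoA, malonyl-CoA and NADPH to build palmitate, which elongases lengthen, desaturases give double bonds and acyl-CoA synthetases activate for use in complex lipids. The transcription factors SREBP2 (gene Srebf2) and SREBP1 (gene Srebf1) drive these genes when membranes hold little sterol, and INSIG1 holds them back in the endoplasmic reticulum when sterol is plentiful. In lung, alveolar type 2 cells make surfactant, a film rich in phospholipid and cholesterol, from late gestation on.

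The study profiled sorted lung epithelial cells and fibroblasts across development with 3'SAGE-seq, which counts polyadenylated transcripts by a tag taken close to their 3' end. All mice were C57BL/6 and carried the Col1a2-GFP transgene, in which a collagen gene's promoter drives a green fluorescent protein in collagen-producing cells. Both sorts left out cells positive for CD31, CD45, Ter119 or CD146. Epithelial cells were sorted as Epcam positive and GFP negative (the sample label at E18.5 names the Epcam gate only), and fibroblasts as Epcam negative and GFP positive, so Col1a2-negative mesenchymal cells are not in the fibroblast samples. Each cell type had 2 libraries at each of embryonic day 18.5 (E18.5) and postnatal days 0.5 (P0.5), 2 (P2), 7 (P7) and 28 (P28), and fibroblasts had a further single library at P56. Replicates are numbered in the labels and not tied to animals. The p-values therefore cover the spread among these libraries alone, and that spread may be technical.

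Promoter sequence was available for 27 of the 33 genes, as 34 windows of 300 bases from 250 before to 50 after a transcription start (RefSeq, GRCm38.p6). The letters TCACNCCAC of a sterol regulatory element, on either strand, were found in the window of 1 member, Hmgcs1, starting 137 bases before the start, and in 1.24% of the 32851 windows of all genes. The E box letters CACGTG stood in windows of 5 of 27 members (Elovl5, Dhcr7, Hsd17b7, Insig1 and Sc5d), which is 14.7% of the 34 windows against 7.15% of all windows. CCAAT, the letters bound by the factor NF-Y, occurred in either orientation in 23 of 27 members, 16 of 17 in the sterol arm and 7 of 10 in the fatty acid arm. That is 70.6% of the members' windows against 37.4% of all windows. The GC box letters GGGCGG occurred in 22 of 27 members, or 73.5% of their windows against 35.7% of all windows. Different motifs overlapped in 1 place, a CCAAT box and a GC box of Elovl1. A match is a run of letters and not a measured binding site.

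Of these promoters 5 are shown, in lower case with TCACNCCAC, CACGTG and CCAAT matches of either strand in capitals. Hmgcs1 is shown for its sterol regulatory element letters. Insig1 and Elovl5 are E box holders picked because their change over time differed between the cell types. Pmvk and Mvd, without E box letters in their windows, had such a difference too. Mvk and Fasn, with 5 and 3 CCAAT matches, are genes that fell across birth (Mvk in fibroblasts, Fasn in epithelium). A link between a motif and a change was not tested. They lie at chr13:119690101-119690400 on the plus strand (Hmgcs1), chr5:28071162-28071461 on the plus strand (Insig1), chr9:77917115-77917414 on the plus strand (Elovl5), chr5:114444019-114444318 on the plus strand (Mvk) and chr11:120824498-120824797 on the minus strand (Fasn).
Hmgcs1: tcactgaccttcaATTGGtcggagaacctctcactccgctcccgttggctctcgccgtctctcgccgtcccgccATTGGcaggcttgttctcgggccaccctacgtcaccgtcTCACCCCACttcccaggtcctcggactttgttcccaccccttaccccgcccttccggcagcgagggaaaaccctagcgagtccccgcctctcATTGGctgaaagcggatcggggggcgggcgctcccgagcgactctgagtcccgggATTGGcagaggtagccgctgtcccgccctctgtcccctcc
Insig1: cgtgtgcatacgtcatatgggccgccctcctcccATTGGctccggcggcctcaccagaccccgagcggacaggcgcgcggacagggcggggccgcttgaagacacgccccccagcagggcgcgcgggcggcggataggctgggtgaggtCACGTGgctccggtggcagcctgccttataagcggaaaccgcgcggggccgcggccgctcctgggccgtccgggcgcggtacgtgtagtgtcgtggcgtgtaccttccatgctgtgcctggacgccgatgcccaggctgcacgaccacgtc
Elovl5: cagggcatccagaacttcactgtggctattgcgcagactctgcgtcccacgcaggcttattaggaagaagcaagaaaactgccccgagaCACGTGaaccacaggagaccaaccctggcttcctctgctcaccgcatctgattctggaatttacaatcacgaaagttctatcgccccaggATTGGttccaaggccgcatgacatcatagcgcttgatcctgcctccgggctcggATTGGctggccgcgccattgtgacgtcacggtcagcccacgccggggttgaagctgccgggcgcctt
Mvk: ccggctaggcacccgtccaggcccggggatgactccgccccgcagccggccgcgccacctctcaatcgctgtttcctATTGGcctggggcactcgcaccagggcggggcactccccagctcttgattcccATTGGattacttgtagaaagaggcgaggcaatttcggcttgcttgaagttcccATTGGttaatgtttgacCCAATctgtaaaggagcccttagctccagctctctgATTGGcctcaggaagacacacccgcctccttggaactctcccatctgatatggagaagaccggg
Fasn: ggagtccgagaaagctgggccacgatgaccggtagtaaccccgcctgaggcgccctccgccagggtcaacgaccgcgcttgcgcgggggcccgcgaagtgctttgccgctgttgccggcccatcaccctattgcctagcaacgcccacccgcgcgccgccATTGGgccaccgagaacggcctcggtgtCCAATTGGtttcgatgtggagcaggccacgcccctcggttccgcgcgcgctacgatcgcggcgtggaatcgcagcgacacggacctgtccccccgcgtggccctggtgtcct

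The deposited value of a gene is its tag count scaled per library, called the normalised value here. The tables of the cell types were scaled separately, so normalised values are compared within a cell type. Whole reads could be recovered from it, at 2146071 to 5729829 reads per library, and where a gene had a count of 0 the upper limit was 3 reads, equal to 0.403 to 1.37 units of normalised value. Such limits cover counting error only, since amplified reads are not independent molecules. Stage changes were tested on log2(normalised value + 1), a scale that understates the change of low genes, and cell types on log2(joint CPM + 1), where joint CPM is recovered reads per 1e+06 reads, scaled over both cell types together. Every test of a gene was limma's, fitted over all genes with Benjamini-Hochberg adjustment and a threshold of 0.05, two-sided. The ± after a change is its standard error, and 2 libraries stand behind each group. A change described as not called without a library, or with another setting, passed the threshold in the full fit and missed it there. The other settings counted in this way are those of the pseudocount, the filter, the tool and the scaling.

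All 10 alveolar type 2 markers were higher in epithelium and all 7 fibroblast markers were higher in fibroblasts, over 5 stages. The fibroblast markers include Col1a2, the gene of the sorting transgene. Markers of cells that the sorts left out were present too. Summed erythroid markers were 1060.2 to 3802 in epithelium and 1106 to 2154 in fibroblasts at P2, and 27.1 to 154 and 48.8 to 96.5 at P7. Summed leukocyte markers were 728 to 778 in epithelium at P28. In epithelium the summed normalised value of the type 2 markers went from 8769 to 9241 at E18.5 up to 29201 to 31193 at P28, and in fibroblasts it was 7.82 to 48.8. Reads of Fdft1, Cyp51, Srebf1, Elovl1, Lss and Mvd cannot be told apart from those of a gene on the opposite strand over their 3' end (Ctsb, Akap9, Rai1, Cdc20, 4930483K19Rik and Gm20388), because the sources used here do not state whether counting used strand. Acat2, Fdps, Idi1, Acaca, Me1, Elovl6, Dhcr7 and Scd1 share runs of 40 bases with near-identical genes or pseudogenes, so their counts are uncertain in the same way. For Scd1 these genes include Scd2 and Scd3.

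Epithelium was first compared with fibroblasts over the 5 shared stages. Both arms were higher in epithelium, the fatty acid arm by more: the median log2 difference in joint CPM was 1.12 over the 21 sterol genes and 2.54 over the 12 fatty acid genes, against 0.01 over all 13386 genes tested. In the sterol arm 18 of 21 genes were higher in epithelium and none lower, and in the fatty acid arm 11 of 12 were higher and 1 was lower, where 32.5% of all genes were called higher and 29.9% lower. At an unadjusted p under 0.05 the sterol arm also had 0 genes lower in epithelium, as it had by edgeR and by DESeq2. The 10 epithelial and 10 fibroblast libraries did not overlap for 17 members, 7 of the sterol arm and 10 of the fatty acid arm. The share of all genes without overlap was not counted, so these counts only describe the members. Because these are bulk samples, fewer cells of a type and less RNA per cell cannot be told apart.

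**Figure D1:**
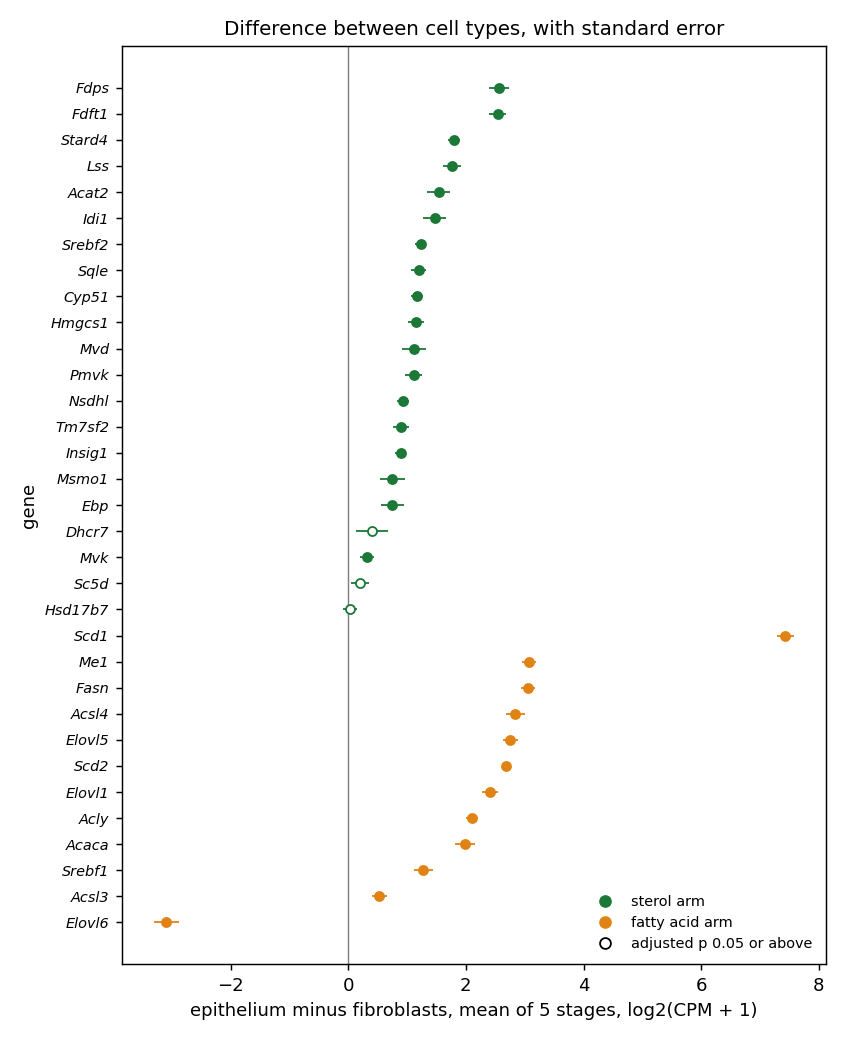
Log2 difference between epithelium and fibroblasts in joint CPM, averaged over 5 stages, for each of the 33 genes (points, sterol arm in green and fatty acid arm in orange, with standard error). Scd1 stands at 7.43, Elovl6 at -3.09, and open points (Dhcr7, Sc5d and Hsd17b7) did not pass the threshold.

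Within the sterol arm Fdps and Fdft1 had the largest log2 differences, with counts that are uncertain as said above. The other enzymes on the way to squalene (Hmgcs1, Mvk, Pmvk, Mvd and Idi1) had smaller differences than Stard4 and Lss. Fdps, which makes farnesyl diphosphate, spanned 1.45 to 16.1 joint CPM in fibroblasts (median 6.19) and 22.5 to 79.5 in epithelium (median 47.9) (log2 difference 2.57 ± 0.17, adjusted p = 1.88e-11). Fdft1, the squalene synthase, spanned 7.05 to 43.9 joint CPM in fibroblasts (median 17.4) and 86.3 to 149.6 in epithelium (median 101) (log2 difference 2.54 ± 0.15, adjusted p = 2.37e-12). For both, every epithelial library was above every fibroblast library. Lss, which closes the rings to lanosterol, spanned 4.82 to 18.1 joint CPM in fibroblasts (median 11.8) and 23.5 to 46.9 in epithelium (median 38.3), again without overlap (log2 difference 1.77 ± 0.15, adjusted p = 1.00e-09). Stard4, a soluble carrier that moves sterol between membranes, spanned 23.7 to 60.3 joint CPM in fibroblasts (median 42.2) and 96.5 to 218 in epithelium (median 149.8) (log2 difference 1.79 ± 0.10, adjusted p = 1.49e-12). The lowest epithelial value of Stard4 was above the highest fibroblast value.

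Cyp51, which takes a methyl group off lanosterol, spanned 63.6 to 117 joint CPM in fibroblasts (median 88.6) and 156 to 270.1 in epithelium (median 187) (log2 difference 1.17 ± 0.09, adjusted p = 4.20e-10). Srebf2, which encodes SREBP2, spanned 66.5 to 196 joint CPM in fibroblasts (median 113) and 219.6 to 325 in epithelium (median 257) (log2 difference 1.23 ± 0.09, adjusted p = 1.79e-10), and Hmgcs1, which makes the precursor of mevalonate, spanned 6.45 to 13.5 joint CPM in fibroblasts (median 9.06) and 13.9 to 28.4 in epithelium (median 23.3) (log2 difference 1.15 ± 0.13, adjusted p = 1.03e-07). None of these 3 genes overlapped between the cell types. Idi1 (1.47), Sqle (1.197), Mvd (1.12), Pmvk (1.11), Nsdhl (0.93) and Insig1 (0.89) were higher in epithelium by the log2 difference given, with libraries that overlapped. So were Acat2, Tm7sf2, Msmo1 and Ebp, by 0.75 to 1.54. Mvk, the mevalonate kinase, spanned 70.3 to 308 joint CPM in fibroblasts (median 121) and 101 to 276 in epithelium (median 162) with the smallest difference past the threshold (log2 difference 0.32 ± 0.12, adjusted p = 0.0271), which was not called without epithelial P0.5 library 2, epithelial P2 library 2, epithelial P7 library 2, epithelial P28 library 1, fibroblast E18.5 library 1, fibroblast P0.5 library 1, fibroblast P7 library 2 or fibroblast P28 library 1 (adjusted p = 0.0505 to 0.0793). Hsd17b7 (0.02), Sc5d (0.20) and Dhcr7 (0.40) did not pass the threshold.

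In the fatty acid arm the desaturase gene Scd1 had the largest difference. Scd1, which puts the first double bond into stearate and palmitate, spanned 1.59 to 35.8 joint CPM in fibroblasts (median 7.92) and 485 to 3942 in epithelium (median 1902) (log2 difference 7.43 ± 0.14, adjusted p = 7.66e-21). Scd2, its neighbour on chromosome 19 with the same reaction, spanned 255 to 1565 joint CPM in fibroblasts (median 503) and 1858 to 8694 in epithelium (median 2789) (log2 difference 2.68 ± 0.07, adjusted p = 1.94e-18). Fasn, the synthase that builds palmitate, spanned 14.5 to 38.8 joint CPM in fibroblasts (median 22.7) and 109.6 to 334 in epithelium (median 215) (log2 difference 3.05 ± 0.12, adjusted p = 1.53e-15). None of these overlapped, and Scd2 ranked below Fasn, Me1, Acsl4 and Elovl5 by its log2 difference.

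The suppliers of the pathway were also higher in epithelium. Me1, the cytosolic malic enzyme that yields NADPH, spanned 11.6 to 92.4 joint CPM in fibroblasts (median 69.5) and 193 to 634 in epithelium (median 442) (log2 difference 3.08 ± 0.12, adjusted p = 1.11e-15). Acly, which splits citrate to acetyl-CoA, spanned 39.4 to 89.1 joint CPM in fibroblasts (median 60.1) and 169 to 384 in epithelium (median 282) (log2 difference 2.10 ± 0.10, adjusted p = 2.78e-14), and Acaca, which makes malonyl-CoA, spanned 4.57 to 19.7 joint CPM in fibroblasts (median 8.29) and 25.7 to 54.3 in epithelium (median 35.6) (log2 difference 1.98 ± 0.17, adjusted p = 1.31e-09). Every epithelial library was above every fibroblast library for all 3 genes. Among the acyl-CoA synthetases, Acsl4, which prefers arachidonate, spanned 0.403 to 5.90 joint CPM in fibroblasts (median 1.69) and 9.24 to 51.5 in epithelium (median 20.2) without overlap (log2 difference 2.84 ± 0.16, adjusted p = 1.16e-12), while Acsl3 overlapped, with 8.77 to 29.2 joint CPM in fibroblasts (median 16.3) and 17.7 to 30.1 in epithelium (median 23.4) (log2 difference 0.53 ± 0.12, adjusted p = 0.000773). Srebf1, which encodes SREBP1, overlapped too, with 3.97 to 12.4 joint CPM in fibroblasts (median 5.47) and 9.13 to 24.4 in epithelium (median 17.4) (log2 difference 1.28 ± 0.17, adjusted p = 7.37e-07).

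The 3 elongases listed did not share a direction. Elovl5, which lengthens polyunsaturated fatty acids, spanned 3.05 to 26.4 joint CPM in fibroblasts (median 6.01) and 33.9 to 90.0 in epithelium (median 56.7) (log2 difference 2.76 ± 0.12, adjusted p = 2.01e-14), and Elovl1, which makes very long saturated chains, spanned 5.41 to 13.0 joint CPM in fibroblasts (median 7.16) and 20.3 to 72.2 in epithelium (median 48.5) (log2 difference 2.41 ± 0.13, adjusted p = 3.47e-13). Elovl6 went the other way, with 4.31 to 24.6 joint CPM in fibroblasts (median 11.9) and 0 to 3.17 in epithelium (median 0.291) (log2 difference -3.09 ± 0.21, adjusted p = 3.09e-11), and its libraries did not overlap either. In epithelium Elovl6 had normalised values of 0.324 and 0 at E18.5, 0 and 0 at P0.5, 0.456 and 0.659 at P2, 0 and 0.280 at P7 and 3.48 and 1.15 at P28, below the filter on low values. Elovl6 entered the joint test through its fibroblast levels, so its p-value gives no separate support to the direction. In fibroblasts its normalised values were 15.4 and 26.0 at E18.5, 13.5 and 9.73 at P0.5, 16.4 and 8.78 at P2, 4.46 and 11.3 at P7, 7.09 and 14.0 at P28 and 5.77 in the single P56 library. The ratios of reads given here used the scale of the normalised values, set separately for each cell type, so they are approximate. In recovered reads, fibroblasts had 116 against 1 in epithelium at E18.5, a ratio of 123 with an exact 95% counting interval of 21.6 to 4892. At P2 it was 78 reads against 3 (ratio 21.0, interval 6.94 to 104), and at P7 44 against 1 (ratio 63.3, interval 10.8 to 2557). Both epithelial libraries were at 0 at P0.5, and no ratio is given there. At P28 the log2 difference was -1.87 ± 0.48, and it was not called without epithelial P28 library 2 or fibroblast P28 library 2 (adjusted p = 0.0634 to 0.0709).

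Scd1 in fibroblasts was 0.291% to 0.825% of its epithelial joint CPM, depending on the stage. For the surfactant genes Sftpc and Sftpb, which mark type 2 cells, the same share was 0.0254% to 0.142% and 0.0192% to 0.244%, and for the epithelial adhesion genes Epcam and Cdh1 it was 0 to 0.130%. At every stage each of these 4 genes had a lower share than Scd1. Some other type 2 markers had a larger share, although the cell types were scaled separately. Abca3 had normalised values of 5.32 and 10.4 in fibroblasts at P28, against 258 and 223 in epithelium. Etv5 had 4.73 and 5.85 in fibroblasts at P7, against 127 and 152 in epithelium. Whether epithelial reads added to fibroblast Scd1 was not tested.

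Each stage was also tested alone. At E18.5, 11 of 21 sterol genes and 10 of 12 fatty acid genes were higher in epithelium, where 21.3% of all genes were higher and 16.9% lower, and the median log2 differences were 0.95 and 2.11. At P0.5 the counts were 13 and 10 (22.0% higher and 19.0% lower among all genes), at P2 14 and 10 (21.6% and 19.4%), at P7 14 and 11 (19.6% and 15.8%), and at P28 16 and 10 (19.5% and 18.5%). Elovl6 was the only member called lower in epithelium at E18.5, P0.5, P2 and P7. At P28 Sc5d, which desaturates the sterol ring (log2 difference -1.17 ± 0.35, adjusted p = 0.0107), and Hsd17b7, a reductase of the demethylation steps (log2 difference -0.82 ± 0.27, adjusted p = 0.0190), were lower in epithelium as well. The Sc5d difference at P28 was not called without epithelial P28 library 2 or fibroblast P28 library 1 (adjusted p = 0.0613 to 0.0797), and the Hsd17b7 difference was not called without epithelial P28 library 2 or fibroblast P28 library 2 (adjusted p = 0.102 to 0.215).

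A few sterol genes differed at some stages and not at others. Pmvk was at a log2 difference of 0.01 at E18.5 and 0.03 at P7, neither called, and of 2.15 ± 0.32 at P0.5 and 2.08 ± 0.32 at P28, both called. Fdps went from 1.05 ± 0.38 at E18.5 to 3.68 ± 0.38 at P28. Its difference at E18.5 was not called without epithelial E18.5 library 2 or fibroblast E18.5 library 1 (adjusted p = 0.201 to 0.289), or with no filter on low values (adjusted p = 0.0555). Mvd went from 0.23 ± 0.46 (not called) to 2.53 ± 0.46, where 56 reads in epithelium stood against 3 in fibroblasts. On the scale of the normalised values this was a ratio of 18.2, with an interval of 5.90 to 90.7. Sqle was at 0.16 ± 0.29 at P2, not called, and at 2.11 ± 0.29 at P28. Acsl3 was called at P0.5 and P7 and stood at -0.32 ± 0.27 at P28, not called. Some other calls at single stages were lost without at least 1 of the 4 libraries of that stage: Idi1 and Nsdhl at E18.5, Acaca at E18.5, Mvd, Idi1 and Acsl3 at P0.5, Acat2, Hmgcs1, Pmvk, Tm7sf2, Nsdhl, Sc5d, Insig1 and Srebf1 at P2, Mvd, Sqle, Tm7sf2, Ebp and Insig1 at P7, and Hmgcs1, Msmo1 and Srebf1 at P28, at adjusted p-values between 0.0502 and 0.595. With all libraries kept, Mvd at P7 was also not called under 6 other settings (adjusted p = 0.0507 to 0.0994), Ebp at P7 with no filter on low values or with DESeq2 (adjusted p = 0.0521 to 0.0622), Srebf1 at P28 under 3 other settings (adjusted p = 0.0567 to 0.111), Hmgcs1 at P28 with DESeq2 (adjusted p = 0.0565), Idi1 at E18.5 with DESeq2 (adjusted p = 0.0757) and Acsl3 at P0.5 with DESeq2 (adjusted p = 0.0768).

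Changes over time were then tested within each cell type. In epithelium across birth, from E18.5 to P0.5, the fatty acid arm fell where it changed: 4 of 11 tested genes fell (Scd1, Scd2, Fasn and Srebf1) and none rose. In the sterol arm 2 of 21 rose (Pmvk and Fdps) and 1 fell (Nsdhl). Among all 12143 genes tested 7.24% rose and 7.09% fell. The median log2 change was -0.26 in the sterol arm and -0.48 in the fatty acid arm, against -0.02 over all genes. At an unadjusted p under 0.05, 1 fatty acid gene rose and 6 fell, and edgeR and DESeq2 called 0 higher. Over the same interval 4 of 10 type 2 markers rose and none fell (summed value 15485 to 16945 at P0.5, each of the 10 above 0), 2 of 8 type 1 markers fell, and the summed erythroid markers went from 399 to 1462 up to 2084 to 3167 with 1 of 4 called. Of 5 tested airway markers 2 rose and 1 fell (2436 to 2586, then 3831 to 3979), and most of this sum was Tppp3 (2086 and 2180, then 3507 and 3429). Of 2 tested mesothelium markers 1 fell (7400.1 to 7704, then 3891 to 4022, with Upk3b at 0 at both stages). The part of these markers in the changes was not tested.

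From P0.5 to P2 more fatty acid genes rose than fell in epithelium. Of the fatty acid genes 4 of 11 rose (Me1, Scd1, Fasn and Elovl1) and Elovl5 fell, and of the sterol genes Pmvk and Fdps fell and none rose, where 5.13% of all genes rose and 3.69% fell. The medians were 0.11 for the sterol arm and 0.51 for the fatty acid arm. At an unadjusted p under 0.05, 0 sterol genes rose and 3 fell, and edgeR and DESeq2 called 0 higher. Type 2 markers had 3 of 10 higher and type 1 markers 2 of 8 lower. Of 5 tested airway markers 1 rose and 2 fell (3831 to 3979, then 2810.2 to 3555). Most of this sum was Tppp3 (3507 and 3429, then 2287 and 2343). Foxj1 and Ccdc153 were also lower at P2, while Cyp2f2 and Scgb1a1 were higher (Scgb1a1 236 and 205, then 317 and 857). Of 2 tested mesothelium markers 1 fell (3891 to 4022, then 2024 to 2267, with Wt1 at 0 at both stages). What these markers contributed was not tested.

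From P2 to P7 the only member that changed in epithelium was Scd1, which rose. Across all genes 1.55% rose and 2.17% fell. Beside it 4 of 6 tested fibroblast markers fell (105 to 279, then 33.6 to 44.5), as did both tested mesothelium markers (2024 to 2267, then 919 to 964, with Wt1 at 0) and 2 of 4 erythroid markers (1060.2 to 3802, then 27.1 to 154), and 2 of 4 tested cell cycle markers rose (28.3 to 39.9, then 112 to 121). Their part in the Scd1 rise was not tested. Of the 21 sterol genes limma called 0, with 2 higher at an unadjusted p under 0.05, 1 by edgeR and 0 by DESeq2. From P7 to P28 Pmvk rose and was the only member called (4.87% of all genes rose and 2.41% fell). Of the 11 fatty acid genes limma called 0, with 1 higher and 1 lower at an unadjusted p under 0.05, 0 by edgeR and 1 by DESeq2. Over that interval 4 of 5 tested airway markers rose, with a summed value of 2229 to 2322 at P7 and 5669 to 5870 at P28 (Scgb3a2, Krt5 and Trp63 at 0), and 4 of 6 leukocyte markers rose (12.9 to 24.8 and then 728 to 778), as did 2 of 4 erythroid markers (27.1 to 154, then 590.4 to 689.9). Their part in the Pmvk change was not tested.

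Over the whole course from E18.5 to P28 members of both arms rose and fell in epithelium. In the sterol arm Pmvk, Fdps and Msmo1 rose and Stard4, Insig1 and Mvk fell. In the fatty acid arm Elovl1, Acsl4, Scd1, Acaca and Me1 rose and Scd2 fell, so 3 of 21 and 5 of 11 were higher and 3 and 1 lower. All genes showed 13.5% higher and 11.3% lower, and the arm medians were 0.09 and 0.01. Beside them 8 of 10 type 2 markers rose, 6 of 8 type 1 markers fell (summed value 7389 to 8156, then 3950 to 4684), 5 of 6 fibroblast markers fell (102 to 131, then 29.0 to 33.4), 4 of 6 leukocyte markers rose (111 to 304, then 728 to 778) and 4 of 4 cell cycle markers rose (38.8 to 44.1, then 100.2 to 159). Both tested mesothelium markers, of 4 listed (Msln, Upk3b, Wt1 and Krt19), fell (summed value 7400.1 to 7704, then 852 to 987). Upk3b was at 0 at E18.5 and Wt1 at 0 at P28, so the sum does not read the whole list. The part of the markers was not tested.

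**Figure D2:**
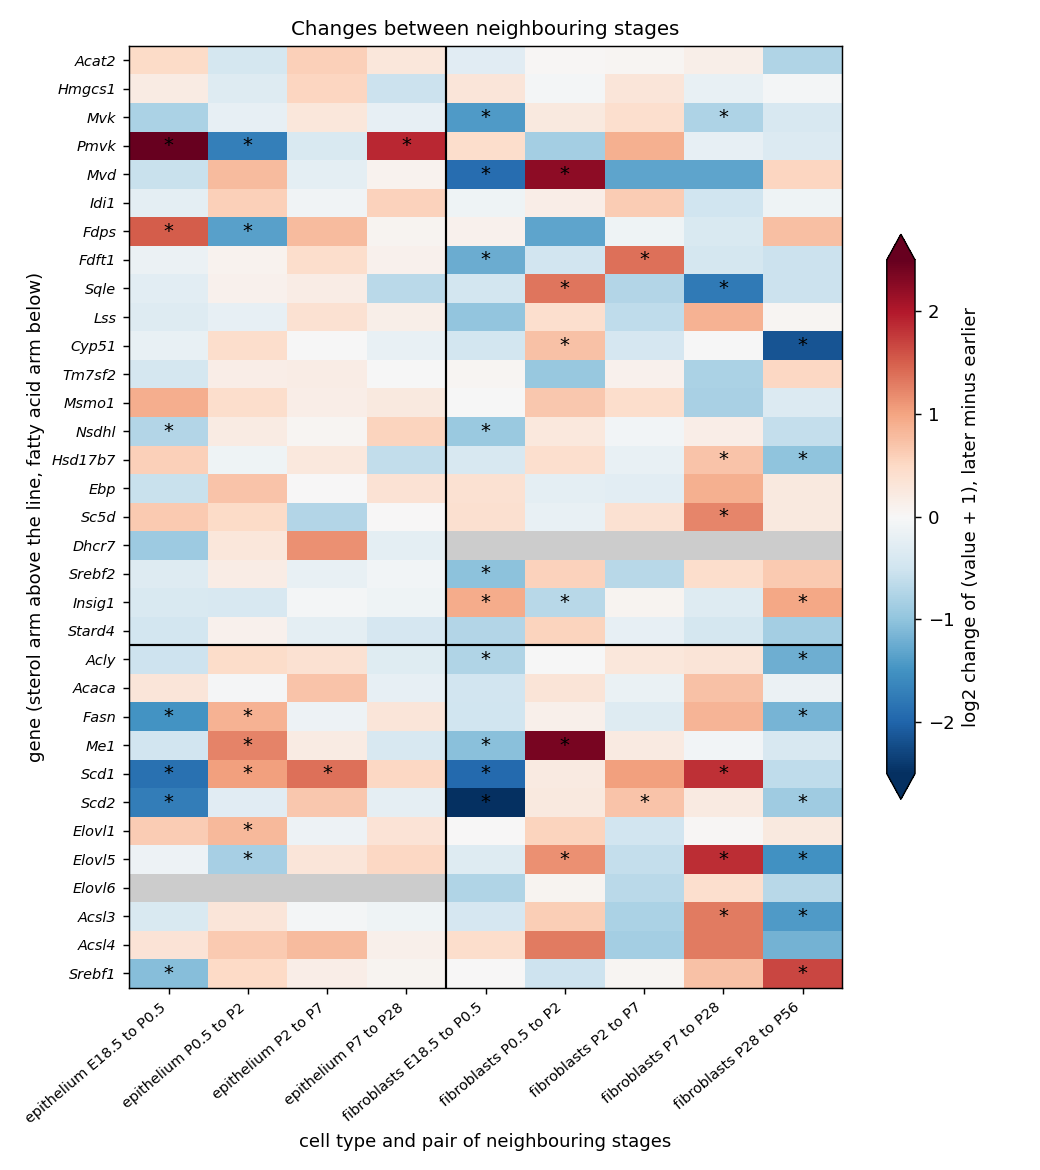
Log2 change of (normalised value + 1) between neighbouring stages for the 33 genes (rows) in epithelium and fibroblasts (columns), red for higher and blue for lower at the later stage, with the colour scale capped at its ends. Asterisks mark an adjusted p under 0.05 and grey marks genes not tested; Scd1 and Scd2 are blue with an asterisk across birth in both cell types, and epithelial Pmvk is red across birth, blue to P2 and red from P7 to P28, each with an asterisk.

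In fibroblasts across birth both arms fell more than they rose. In the sterol arm 5 of 20 tested genes fell (Mvk, Srebf2, Mvd, Nsdhl and Fdft1) and Insig1, the inhibitor, rose. In the fatty acid arm 4 of 12 fell (Scd2, Scd1, Me1 and Acly) and none rose, with 0 higher at an unadjusted p under 0.05, by edgeR and by DESeq2. Among all 11954 genes tested 8.05% rose and 7.34% fell, and the medians were -0.34 for the sterol arm, -0.49 for the fatty acid arm and -0.01 over all genes. Erythroid markers rose in 2 of 4 (331 to 456, then 1403 to 1792), as did 2 of 3 lipofibroblast markers (1226 to 1431, then 1291 to 1316). The 1 tested airway marker, Tppp3, rose (89.6 and 118, then 1396 and 1654). It made up nearly all of the airway sum (91.6 to 119, then 1399 to 1658, with Scgb1a1, Cyp2f2 and Trp63 at 0), so this sum reads 1 gene. Of 7 fibroblast markers 2 rose and 2 fell (9283 to 10950.3, then 8491 to 9176). What part all these markers had was not tested. Without a filter on low values 3 of the 10 calls were left, as Mvk, Scd2 and Insig1.

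From P0.5 to P2 fibroblast Mvd, Sqle and Cyp51 rose and Insig1 fell, and Me1 and Elovl5 rose in the fatty acid arm. That is 3 of 20 and 2 of 12 higher, where 9.74% of all genes rose and 7.20% fell. No fatty acid gene fell by limma, at an unadjusted p under 0.05 (0 genes), by edgeR (0) or by DESeq2 (0). Cell cycle markers rose in 3 of 4 (26.4 to 29.2, then 54.4 to 92.4) and smooth muscle markers in 2 of 6 (79.6 to 92.5, then 195 to 230.1). Of 7 fibroblast markers 4 rose and 3 fell (8491 to 9176, then 10747 to 11674). Of 3 tested lipofibroblast markers 2 fell (1291 to 1316, then 757 to 865), as did 2 of 3 tested mesothelium markers (43.8 to 47.8, then 5.69 to 19.2, with Wt1 at 0 at P2). The 1 tested airway marker, Tppp3, fell too (sum of the airway list 1399 to 1658, then 633 to 748). Whether these markers bear on the members was not tested. From P2 to P7 Fdft1 and Scd2 rose, the only members called, against 2.36% of all genes higher and 4.28% lower. Over that interval 2 of 3 tested mesothelium markers rose (5.69 to 19.2, then 74.3 to 90.1) and 2 of 4 erythroid markers fell (1106 to 2154, then 48.8 to 96.5). The 1 tested airway marker, again Tppp3, fell (sum of the airway list 633 to 748, then 253 to 296). The part of all these markers was not tested.

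From P7 to P28 some fatty acid genes rose in fibroblasts. Elovl5, Acsl3 and Scd1 rose, 3 of 12, with a median log2 change of 0.73 and 11 of 12 changes above 0, against a median of 0.0020 over all genes. None fell, with 0 lower at an unadjusted p under 0.05, by edgeR and by DESeq2. In the sterol arm Sc5d and Hsd17b7 rose and Sqle and Mvk fell. All genes had 11.3% higher and 9.49% lower. Fibroblast markers rose in 3 of 7 and fell in 1 (11011 to 12277, then 22864 to 24757), and 2 of 4 cell cycle markers fell (160.2 to 166, then 33.5 to 42.2). Erythroid markers rose in 2 of 4 (48.8 to 96.5, then 336 to 1454) and the 1 tested airway marker, Tppp3, rose (sum of the airway list 253 to 296, then 554 to 583). Their part was not tested.

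Over the course from E18.5 to P28 more sterol genes fell than rose in fibroblasts: 7 of 20 fell (Mvk, Sqle, Mvd, Tm7sf2, Fdps, Stard4 and Srebf2) and Sc5d rose. In the fatty acid arm Elovl5, Me1 and Acsl4 rose and Scd2 fell. The background was 18.7% higher and 14.9% lower, and the medians were -0.25 and 0.33. Of 7 fibroblast markers 5 rose and 2 fell, and 2 of 3 tested mesothelium markers (90.4 to 101, then 63.4 to 102) and both tested endothelium markers (0.427 to 0.562, then 10.6 to 14.4) rose, with their part not tested. From P28 to P56 Insig1 and Srebf1 rose, and Cyp51, Hsd17b7, Scd2, Acly, Acsl3, Elovl5 and Fasn fell, against 12.2% of all genes higher and 19.1% lower and a median of -0.12 over all genes. The P56 group was 1 library, assumed to vary like the other groups. In it 4 of 7 fibroblast markers were lower and 1 higher (summed value 7537). All 3 tested mesothelium markers were lower (63.4 to 102, then 0.134, with Msln, Upk3b and Wt1 at 0), as were 2 of 4 tested cell cycle markers (33.5 to 42.2, then 13.6, with Mki67, Ccnb1 and Cdk1 at 0). The part of these markers was not tested.

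Taking the sterol arm in pathway order, Hmgcs1 had normalised values in epithelium of 23.4 and 20.2 at E18.5, 25.0 and 25.5 at P0.5, 14.6 and 27.0 at P2, 28.8 and 29.9 at P7 and 19.3 and 20.7 at P28. In fibroblasts Hmgcs1 had 8.43 and 6.82 at E18.5, 9.13 and 10.1 at P0.5, 9.60 and 9.05 at P2, 9.72 and 14.2 at P7, 11.2 and 9.17 at P28 and 9.80 in the single P56 library. No change between stages was called for this entry enzyme in either cell type. Acat2, which supplies its acetoacetyl-CoA, ran from 5.47 to 25.5 in epithelium and from 2.55 to 5.61 in fibroblasts, with no stage change called.

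Mvk, which phosphorylates mevalonate, had normalised values in epithelium of 282 and 289 at E18.5, 143 and 189 at P0.5, 106 and 191 at P2, 149 and 202 at P7 and 163 and 141 at P28. In fibroblasts Mvk had 235 and 325 at E18.5, 91.9 and 115 at P0.5, 122 and 122 at P2, 176 and 152 at P7, 71.8 and 126 at P28 and 72.0 in the single P56 library. Both E18.5 groups stood above all later libraries of their cell type. The fibroblast fall across birth (log2 change -1.42 ± 0.24, adjusted p = 0.000588) and the fall to P28 (log2 change -1.53 ± 0.24, adjusted p = 7.20e-05) were both called. The epithelial fall to P28 was smaller (log2 change -0.91 ± 0.25, adjusted p = 0.0171), which was not called without E18.5 library 1, E18.5 library 2 or P28 library 2 (adjusted p = 0.0628 to 0.106). Between P7 and P28 fibroblast Mvk fell again (log2 change -0.78 ± 0.24, adjusted p = 0.0282), which was not called without P7 library 1, P7 library 2 or P28 library 1 (adjusted p = 0.0584 to 0.369), or with no filter on low values (adjusted p = 0.163).

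Pmvk, which adds the next phosphate, had normalised values in epithelium of 7.46 and 9.15 at E18.5, 59.9 and 50.1 at P0.5, 16.4 and 15.8 at P2, 14.2 and 10.4 at P7 and 48.3 and 47.2 at P28. The P0.5 and P28 libraries were high and all others low, with no overlap. Epithelial Pmvk rose across birth (log2 change 2.59 ± 0.26, adjusted p = 6.63e-05), fell to P2 (log2 change -1.70 ± 0.26, adjusted p = 0.00244) and rose to P28 (log2 change 1.89 ± 0.26, adjusted p = 0.000293), and it was higher at P28 than at E18.5 (log2 change 2.40 ± 0.26, adjusted p = 1.80e-05). In fibroblasts Pmvk had 7.58 and 8.96 at E18.5, 10.7 and 12.4 at P0.5, 7.82 and 4.39 at P2, 12.6 and 10.9 at P7, 14.5 and 6.78 at P28 and 7.65 in the single P56 library. Fibroblast Pmvk had no called change.

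Mvd, which decarboxylates mevalonate diphosphate, was low, with normalised values in epithelium of 9.73 and 6.31 at E18.5, 4.41 and 5.66 at P0.5, 13.2 and 6.59 at P2, 6.16 and 9.79 at P7 and 5.79 and 11.8 at P28 and no stage change called there. In fibroblasts Mvd had 8.43 and 5.12 at E18.5, 0.629 and 1.497 at P0.5, 6.40 and 11.2 at P2, 3.15 and 2.51 at P7, 0.295 and 0.798 at P28 and 1.21 in the single P56 library. It was high at E18.5 and P2 and at or near the counting floor at P0.5 and P28. The fibroblast fall across birth (log2 change -1.91 ± 0.49, adjusted p = 0.0130) was not called without E18.5 library 1 or P0.5 library 1 (adjusted p = 0.0998 to 0.132), or with no filter on low values (adjusted p = 0.0539). The rise to P2 (log2 change 2.24 ± 0.49, adjusted p = 0.00402) was not called without P0.5 library 1 or P2 library 2 (adjusted p = 0.0633 to 0.0636). Over E18.5 to P28 the fall (log2 change -2.32 ± 0.49, adjusted p = 0.00127) rested on 42 reads against 3, a ratio of 14.0 with a counting interval of 4.47 to 70.5.

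Idi1, which isomerises isopentenyl diphosphate, had normalised values in epithelium of 6.81 and 8.52 at E18.5, 4.41 and 8.77 at P0.5, 10.03 and 9.89 at P2, 9.90 and 8.67 at P7 and 12.7 and 16.1 at P28. In fibroblasts Idi1 had 4.49 and 0.853 at E18.5, 2.52 and 1.497 at P0.5, 2.49 and 2.19 at P2, 4.20 and 4.18 at P7, 2.95 and 2.39 at P28 and 2.42 in the single P56 library. Idi1 had no called change in either cell type. Fdps had normalised values in epithelium of 23.0 and 32.8 at E18.5, 83.4 and 78.6 at P0.5, 30.5 and 31.3 at P2, 54.4 and 54.3 at P7 and 48.7 and 66.8 at P28. The P0.5 libraries were the highest and E18.5 and P2 the lowest. Epithelial Fdps rose across birth (log2 change 1.52 ± 0.23, adjusted p = 0.000998) and fell to P2 (log2 change -1.36 ± 0.23, adjusted p = 0.00487), and the latter was not called without P0.5 library 1 or P0.5 library 2 (adjusted p = 0.0505 to 0.0529). It was higher at P28 than at E18.5 (log2 change 1.03 ± 0.23, adjusted p = 0.00503), which was not called without E18.5 library 1 or P28 library 2 (adjusted p = 0.0606 to 0.0693). In fibroblasts Fdps had 9.55 and 17.1 at E18.5, 13.2 and 14.6 at P0.5, 3.91 and 6.31 at P2, 4.20 and 5.01 at P7, 1.48 and 6.38 at P28 and 6.18 in the single P56 library, and its fall to P28 (log2 change -1.69 ± 0.48, adjusted p = 0.0106) was not called without E18.5 library 2 or P28 library 1 (adjusted p = 0.116 to 0.195), or with no filter on low values (adjusted p = 0.0839).

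Fdft1, whose reads cannot be told apart from those of Ctsb, had normalised values in epithelium of 105 and 104 at E18.5, 101 and 88.2 at P0.5, 94.4 and 108 at P2, 159 and 119 at P7 and 144 and 154 at P28. Epithelial Fdft1 had no called change. In fibroblasts Fdft1 had 24.4 and 46.5 at E18.5, 12.3 and 15.3 at P0.5, 7.46 and 12.1 at P2, 33.1 and 20.9 at P7, 29.2 and 12.4 at P28 and 12.9 in the single P56 library. Its replicates spread widely, as at P28. Its fibroblast fall across birth (log2 change -1.24 ± 0.40, adjusted p = 0.0425) was not called without E18.5 library 2, P0.5 library 1 or P0.5 library 2 (adjusted p = 0.132 to 0.350), or with no filter on low values (adjusted p = 0.234), and its rise from P2 to P7 (log2 change 1.38 ± 0.40, adjusted p = 0.0445) was not called without any 1 of the 4 libraries compared (adjusted p = 0.0627 to 0.325), or with no filter on low values (adjusted p = 0.275).

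Sqle, the squalene epoxidase and a rate-limiting step of the pathway, had normalised values in epithelium of 63.6 and 75.4 at E18.5, 49.2 and 67.3 at P0.5, 64.7 and 59.6 at P2, 51.6 and 96.2 at P7 and 44.4 and 42.6 at P28. Epithelial Sqle had no called change. In fibroblasts Sqle had 26.1 and 32.8 at E18.5, 21.7 and 20.2 at P0.5, 60.4 and 49.1 at P2, 33.3 and 31.3 at P7, 6.20 and 12.4 at P28 and 5.77 in the single P56 library. The P2 pair was the highest and the P28 pair and the P56 library the lowest, with no overlap with P2. The rise from P0.5 to P2 (log2 change 1.34 ± 0.31, adjusted p = 0.00538) was not called without P0.5 library 2 or P2 library 1 (adjusted p = 0.0628 to 0.0711). The fall from P7 to P28 (log2 change -1.76 ± 0.31, adjusted p = 0.000368) and from E18.5 to P28 (log2 change -1.63 ± 0.31, adjusted p = 0.000422) were also called.

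**Figure D3:**
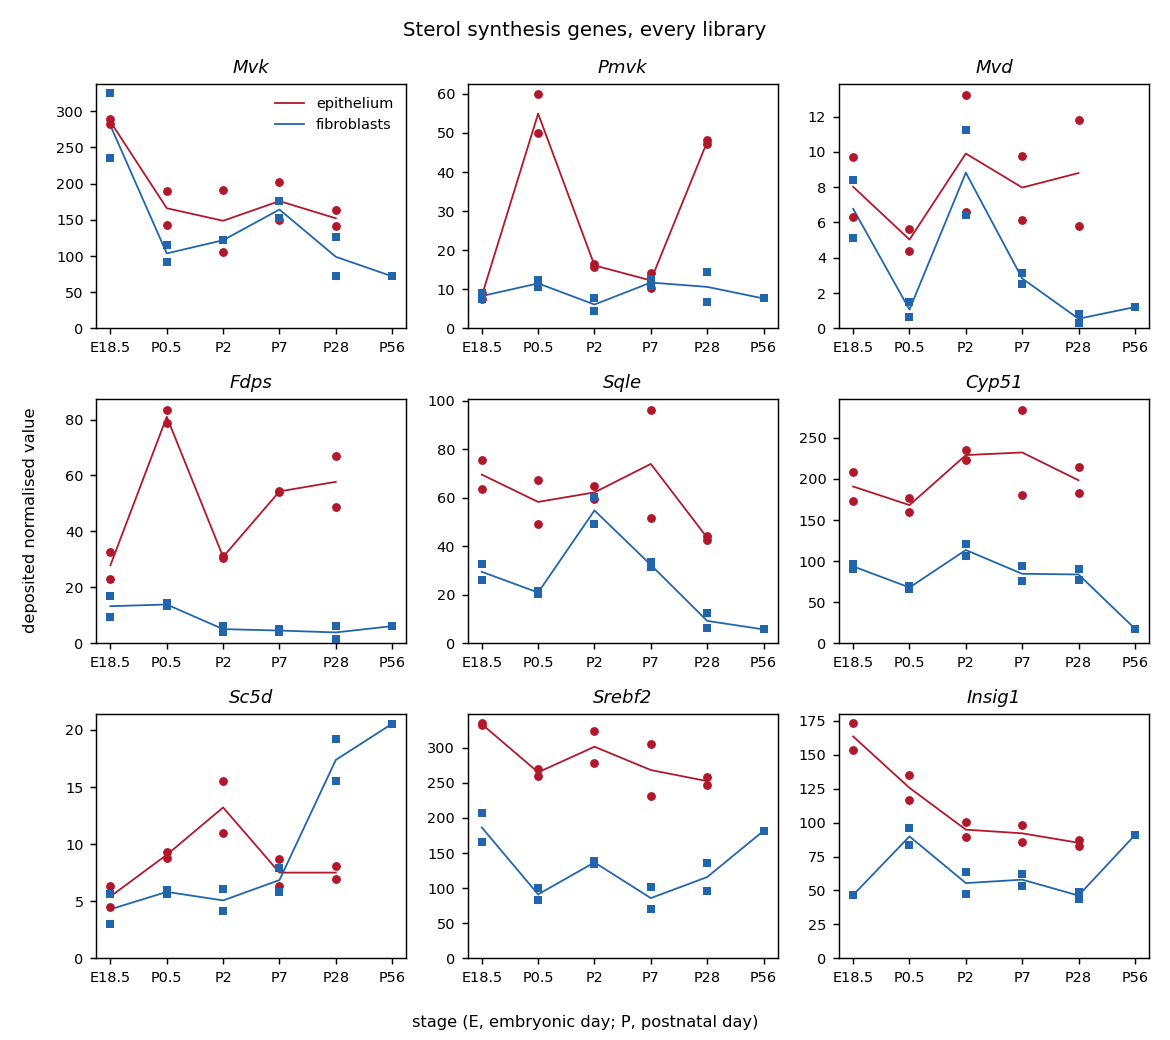
Normalised value of 9 sterol arm genes in every library (points, epithelium in red and fibroblasts in blue) by stage, with lines through the stage means. Epithelial Pmvk is high at P0.5 and P28 and low at the other stages, and fibroblast Sqle is highest at P2 and lowest at P56. The cell types were scaled separately, so the plot is read within a cell type.

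Lss had normalised values in epithelium of 45.4 and 45.4 at E18.5, 38.9 and 33.9 at P0.5, 24.6 and 39.9 at P2, 49.1 and 34.7 at P7 and 43.2 and 49.0 at P28. In fibroblasts Lss had 15.2 and 19.2 at E18.5, 12.3 and 5.24 at P0.5, 10.3 and 12.1 at P2, 4.99 and 9.19 at P7, 14.2 and 12.4 at P28 and 13.7 in the single P56 library. Lss had no called change in either cell type. Cyp51 had normalised values in epithelium of 208 and 173 at E18.5, 177 and 159.8 at P0.5, 235 and 223 at P2, 180.1 and 284 at P7 and 183 and 214 at P28. Epithelial Cyp51 had no called change. In fibroblasts Cyp51 had 91.0 and 96.4 at E18.5, 70.2 and 65.9 at P0.5, 106 and 121 at P2, 75.4 and 93.9 at P7, 76.8 and 90.9 at P28 and 17.99 in the single P56 library. The single P56 library was below all others. The rise from P0.5 to P2 (log2 change 0.73 ± 0.21, adjusted p = 0.0209) was not called without any 1 of the 4 libraries compared (adjusted p = 0.0643 to 0.154), and the fall from P28 to P56 (log2 change -2.15 ± 0.25, adjusted p = 4.80e-06) was called.

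Nsdhl, a dehydrogenase of the demethylation steps, had normalised values in epithelium of 127 and 102 at E18.5, 78.6 and 59.4 at P0.5, 84.3 and 74.1 at P2, 84.6 and 79.2 at P7 and 128 and 114 at P28. In fibroblasts Nsdhl had 60.1 and 81.5 at E18.5, 34.0 and 38.6 at P0.5, 50.1 and 38.1 at P2, 42.0 and 40.9 at P7, 41.0 and 52.6 at P28 and 30.6 in the single P56 library. Both cell types were lower at P0.5 than at E18.5 without overlap. The epithelial fall (log2 change -0.73 ± 0.20, adjusted p = 0.0282) was not called without E18.5 library 1 or P0.5 library 2 (adjusted p = 0.176 to 0.237), or with no filter on low values (adjusted p = 0.0513), and the fibroblast fall (log2 change -0.93 ± 0.24, adjusted p = 0.0143) was not called without E18.5 library 2, P0.5 library 1 or P0.5 library 2 (adjusted p = 0.0679 to 0.154), or with no filter on low values (adjusted p = 0.0564).

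Hsd17b7 had normalised values in epithelium of 34.4 and 48.0 at E18.5, 72.3 and 52.6 at P0.5, 51.1 and 63.9 at P2, 84.4 and 56.5 at P7 and 55.6 and 36.0 at P28. Epithelial Hsd17b7 had no called change. In fibroblasts Hsd17b7 had 50.6 and 53.7 at E18.5, 41.9 and 36.7 at P0.5, 61.1 and 45.2 at P2, 57.0 and 37.2 at P7, 71.8 and 80.2 at P28 and 37.3 in the single P56 library. Fibroblast Hsd17b7 was highest at P28. Its rise from P7 to P28 (log2 change 0.71 ± 0.25, adjusted p = 0.0478) was not called without P7 library 2, P28 library 1 or P28 library 2 (adjusted p = 0.104 to 0.323), or under 5 other settings (adjusted p = 0.0503 to 0.119). The fall to P56 (log2 change -1.004 ± 0.30, adjusted p = 0.0162) was not called without P28 library 2 (adjusted p = 0.0665), or with no filter on low values or with TMM scaling (adjusted p = 0.0507 to 0.0601).

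Sc5d had normalised values in epithelium of 4.54 and 6.31 at E18.5, 8.81 and 9.33 at P0.5, 10.9 and 15.5 at P2, 6.35 and 8.67 at P7 and 8.11 and 6.91 at P28. Epithelial Sc5d had no called change. In fibroblasts Sc5d had 5.62 and 2.99 at E18.5, 5.66 and 5.99 at P0.5, 6.04 and 4.11 at P2, 7.88 and 5.85 at P7, 19.2 and 15.6 at P28 and 20.5 in the single P56 library. The P28 pair and the P56 library were above all earlier ones. Fibroblast Sc5d rose from E18.5 to P28 (log2 change 1.83 ± 0.39, adjusted p = 0.00137), and its rise from P7 to P28 (log2 change 1.23 ± 0.39, adjusted p = 0.0326) was not called without any 1 of the 4 libraries compared (adjusted p = 0.0625 to 0.169), or with no filter on low values or with DESeq2 (adjusted p = 0.0642 to 0.0682). Of the other late-step genes, Msmo1 rose in epithelium from E18.5 to P28 (log2 change 1.77 ± 0.51, adjusted p = 0.0207), which was not called without E18.5 library 1 or P28 library 2 (adjusted p = 0.168 to 0.192), or with no filter on low values (adjusted p = 0.0588), from normalised values of 0.973 and 3.16 to 5.79 and 13.0. Tm7sf2 fell in fibroblasts over that interval (log2 change -1.59 ± 0.35, adjusted p = 0.00161), from 40.7 and 54.6 to 17.7 and 12.8, which was not called with no filter on low values (adjusted p = 0.0516). Ebp (2.25 to 13.1 over all libraries) and Dhcr7 (0 to 4.30, not tested in fibroblasts) had no called change.

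Across birth in fibroblasts the regulators Srebf2 and Insig1 of the sterol arm moved in opposite directions. In epithelium both were lower at P28 than at E18.5 in every library, and only the fall of Insig1 was called. Srebf2 had normalised values in epithelium of 332 and 335 at E18.5, 269.9 and 260.2 at P0.5, 324 and 279 at P2, 305 and 231 at P7 and 258 and 247 at P28. Epithelial Srebf2 had no called change. In fibroblasts Srebf2 had 166 and 207 at E18.5, 99.7 and 82.7 at P0.5, 135 and 139 at P2, 102 and 69.7 at P7, 96.6 and 135 at P28 and 182 in the single P56 library. Its fall across birth (log2 change -1.02 ± 0.23, adjusted p = 0.00467) was not called without E18.5 library 2 or P0.5 library 2 (adjusted p = 0.0645 to 0.0837), or with no filter on low values (adjusted p = 0.0643). The fall from E18.5 to P28 (log2 change -0.69 ± 0.23, adjusted p = 0.0234) was not called without E18.5 library 2 or P28 library 1 (adjusted p = 0.179 to 0.229), or with no filter on low values (adjusted p = 0.108).

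Insig1 had normalised values in epithelium of 153 and 174 at E18.5, 116 and 135 at P0.5, 89.3 and 100.2 at P2, 98.2 and 85.9 at P7 and 87.3 and 83.0 at P28, and the E18.5 pair was the highest. Epithelial Insig1 fell from E18.5 to P28 (log2 change -0.93 ± 0.18, adjusted p = 0.00186). In fibroblasts Insig1 had 46.9 and 46.5 at E18.5, 83.4 and 96.2 at P0.5, 47.3 and 63.6 at P2, 62.5 and 53.4 at P7, 48.7 and 43.9 at P28 and 90.8 in the single P56 library. The P0.5 pair and the P56 library were above all other fibroblast libraries. Fibroblast Insig1 rose across birth (log2 change 0.92 ± 0.22, adjusted p = 0.00785), which was not called without P0.5 library 2 (adjusted p = 0.107), and fell to P2 (log2 change -0.70 ± 0.22, adjusted p = 0.0364), which was not called without P0.5 library 1, P0.5 library 2 or P2 library 1 (adjusted p = 0.0942 to 0.306), or with no filter on low values (adjusted p = 0.0648). It rose from P28 to P56 (log2 change 0.96 ± 0.27, adjusted p = 0.0113).

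Stard4 had normalised values in epithelium of 195 and 230.4 at E18.5, 165 and 143 at P0.5, 169 and 162 at P2, 123 and 158 at P7 and 108 and 101 at P28. In fibroblasts Stard4 had 62.6 and 52.0 at E18.5, 39.0 and 29.2 at P0.5, 55.1 and 45.8 at P2, 45.4 and 41.3 at P7, 24.2 and 41.1 at P28 and 17.2 in the single P56 library. Both P28 epithelial libraries were below all earlier ones. The fall from E18.5 to P28 was called in epithelium (log2 change -1.01 ± 0.19, adjusted p = 0.00114) and in fibroblasts (log2 change -0.83 ± 0.27, adjusted p = 0.0223), the latter not called without E18.5 library 1 or P28 library 1 (adjusted p = 0.129 to 0.270), or with no filter on low values (adjusted p = 0.0869).

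Of the fatty acid arm the suppliers come first. Acly had normalised values in epithelium of 304 and 288 at E18.5, 244 and 173 at P0.5, 314 and 254 at P2, 337 and 404 at P7 and 319 and 277 at P28. Epithelial Acly had no called change. In fibroblasts Acly had 88.2 and 87.0 at E18.5, 52.2 and 50.9 at P0.5, 63.6 and 40.9 at P2, 61.4 and 63.1 at P7, 91.0 and 67.4 at P28 and 33.2 in the single P56 library. Its fall across birth (log2 change -0.75 ± 0.24, adjusted p = 0.0380) was not called without any 1 of the 4 libraries compared (adjusted p = 0.116 to 0.188), or with no filter on low values (adjusted p = 0.118), and it fell from P28 to P56 (log2 change -1.22 ± 0.29, adjusted p = 0.00369).

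Me1 had normalised values in epithelium of 303 and 339.9 at E18.5, 269.5 and 197 at P0.5, 526 and 559 at P2, 587 and 668 at P7 and 439 and 506 at P28. All 6 libraries from P2 on were above the 4 earlier ones. Epithelial Me1 rose from P0.5 to P2 (log2 change 1.23 ± 0.18, adjusted p = 0.00209) and was higher at P28 than at E18.5 (log2 change 0.55 ± 0.18, adjusted p = 0.0406), the latter not called without any 1 of the 4 libraries compared (adjusted p = 0.0635 to 0.208), or with no filter on low values (adjusted p = 0.0781). In fibroblasts Me1 had 43.3 and 20.05 at E18.5, 12.0 and 15.7 at P0.5, 65.4 and 86.1 at P2, 95.6 and 81.0 at P7, 80.9 and 88.1 at P28 and 63.4 in the single P56 library, with the same split between P0.5 and P2. Fibroblast Me1 rose there (log2 change 2.37 ± 0.29, adjusted p = 1.75e-05) and over E18.5 to P28 (log2 change 1.49 ± 0.29, adjusted p = 0.000623), after a fall across birth (log2 change -1.05 ± 0.29, adjusted p = 0.0201) that was not called without E18.5 library 1, P0.5 library 1 or P0.5 library 2 (adjusted p = 0.0593 to 0.275), or with no filter on low values (adjusted p = 0.153).

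Acaca had normalised values in epithelium of 26.3 and 30.0 at E18.5, 36.0 and 34.2 at P0.5, 29.6 and 40.2 at P2, 57.5 and 57.1 at P7 and 55.2 and 44.1 at P28, higher at P7 and P28 than at all earlier stages. The rise from E18.5 to P28 (log2 change 0.79 ± 0.23, adjusted p = 0.0205) was not called without E18.5 library 1 or P28 library 1 (adjusted p = 0.110 to 0.153). In fibroblasts Acaca had 13.5 and 7.25 at E18.5, 8.18 and 5.61 at P0.5, 10.3 and 7.40 at P2, 4.73 and 12.1 at P7, 20.1 and 8.77 at P28 and 11.9 in the single P56 library, with replicates that overlapped across stages and no called change.

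Fasn had normalised values in epithelium of 342 and 349 at E18.5, 115 and 130.4 at P0.5, 264 and 193 at P2, 199 and 215 at P7 and 276 and 236 at P28. The E18.5 pair was the highest and the P0.5 pair the lowest. Epithelial Fasn fell across birth (log2 change -1.49 ± 0.19, adjusted p = 0.000259) and rose to P2 (log2 change 0.88 ± 0.19, adjusted p = 0.0126), and the latter was not called without P0.5 library 1, P0.5 library 2 or P2 library 1 (adjusted p = 0.0721 to 0.106). In fibroblasts Fasn had 23.6 and 39.7 at E18.5, 19.5 and 23.6 at P0.5, 19.2 and 29.1 at P2, 15.0 and 23.4 at P7, 39.6 and 29.9 at P28 and 14.9 in the single P56 library. Its fall from P28 to P56 (log2 change -1.15 ± 0.39, adjusted p = 0.0319) was not called without P28 library 1 (adjusted p = 0.146), or under 4 other settings (adjusted p = 0.0511 to 0.124).

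Scd1 had normalised values in epithelium of 1855 and 2109 at E18.5, 586 and 496 at P0.5, 1077 and 1105 at P2, 3209 and 2532 at P7 and 4315 and 3902 at P28. The P0.5 pair was the lowest and the P28 pair the highest, with each stage's pair apart from the next. Epithelial Scd1 fell across birth (log2 change -1.87 ± 0.18, adjusted p = 6.06e-05), rose to P2 (log2 change 1.02 ± 0.18, adjusted p = 0.00585) and rose to P7 (log2 change 1.38 ± 0.18, adjusted p = 0.000803), and it was higher at P28 than at E18.5 (log2 change 1.05 ± 0.18, adjusted p = 0.000652). Its rise to P2 was not called without P0.5 library 2 (adjusted p = 0.0667). In fibroblasts Scd1 had 15.7 and 12.4 at E18.5, 2.203 and 3.74 at P0.5, 6.75 and 1.65 at P2, 8.14 and 8.35 at P7, 28.1 and 36.3 at P28 and 20.3 in the single P56 library. Fibroblast Scd1 fell across birth (log2 change -1.94 ± 0.44, adjusted p = 0.00564) and rose from P7 to P28 (log2 change 1.83 ± 0.44, adjusted p = 0.00564). The fall was not called without P0.5 library 1 (adjusted p = 0.0785), or with no filter on low values (adjusted p = 0.0793), and the rise was not called without P28 library 2 (adjusted p = 0.0674), or with no filter on low values (adjusted p = 0.0726).

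Scd2 had normalised values in epithelium of 8895 and 8456 at E18.5, 2404 and 2857 at P0.5, 2314 and 2024 at P2, 3226 and 3714 at P7 and 3015 and 2908 at P28. The E18.5 pair was far above all others. Epithelial Scd2 fell across birth (log2 change -1.73 ± 0.18, adjusted p = 6.98e-05) and was lower at P28 than at E18.5 (log2 change -1.55 ± 0.18, adjusted p = 2.99e-05). In fibroblasts Scd2 had 1515 and 1655 at E18.5, 264 and 273 at P0.5, 319.9 and 314 at P2, 502 and 547 at P7, 559 and 663 at P28 and 330.1 in the single P56 library, again highest at E18.5. Fibroblast Scd2 fell across birth (log2 change -2.56 ± 0.17, adjusted p = 1.85e-08), rose from P2 to P7 (log2 change 0.72 ± 0.17, adjusted p = 0.0125), was lower at P28 than at E18.5 (log2 change -1.38 ± 0.17, adjusted p = 3.76e-06) and fell to P56 (log2 change -0.88 ± 0.21, adjusted p = 0.00310). The rise from P2 to P7 was not called without P2 library 1, P2 library 2 or P7 library 2 (adjusted p = 0.0628 to 0.103).

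As a description, with a tag per transcript and no length in the unit, epithelial Scd1 counted 0.209 and 0.249 per Scd2 at E18.5, 0.244 and 0.174 at P0.5, 0.465 and 0.546 at P2, 0.995 and 0.682 at P7, and 1.43 and 1.34 at P28. In fibroblasts the same ratio was 0.00524 to 0.0614. Scd1 shares runs of 40 bases with Scd2, and how many fibroblast Scd1 reads came from Scd2 was not tested. The epithelial ratio was highest in the P28 pair.

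**Figure D4:**
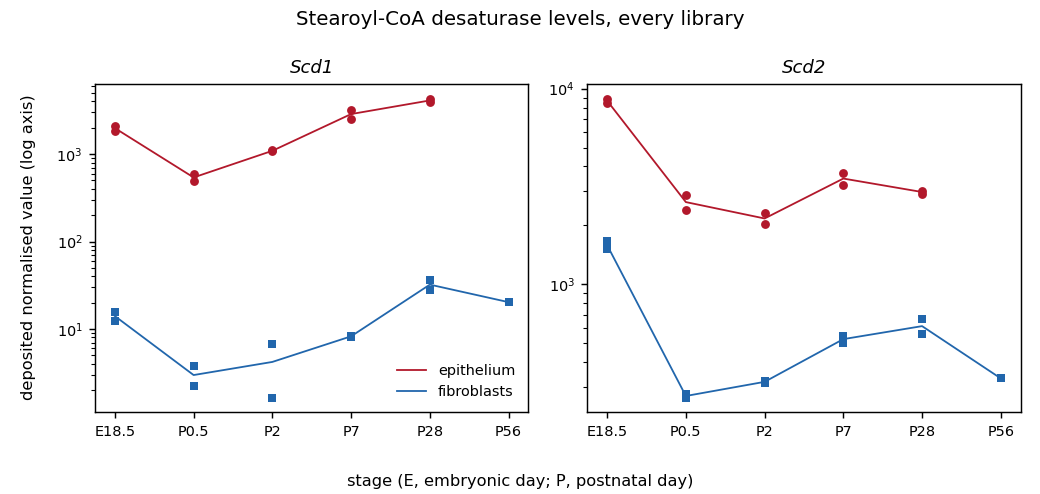
Normalised value of Scd1 and Scd2 in every library by stage, on a log axis (points, epithelium in red and fibroblasts in blue, with lines through the stage means). Both genes drop from E18.5 to P0.5 in both cell types, and epithelial Scd1 reaches 3902 and 4315 at P28 while Scd2 stays at 2908 and 3015. Each cell type has its own scaling.

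Among the elongases, Elovl1, whose reads cannot be told apart from those of Cdc20, had normalised values in epithelium of 22.1 and 21.5 at E18.5, 37.1 and 31.4 at P0.5, 75.7 and 49.1 at P2, 57.3 and 54.6 at P7 and 76.1 and 66.8 at P28. Libraries from P2 on were above all earlier ones. Epithelial Elovl1 rose from E18.5 to P28 (log2 change 1.67 ± 0.23, adjusted p = 0.000152), and its rise from P0.5 to P2 (log2 change 0.82 ± 0.23, adjusted p = 0.0449) was not called without P0.5 library 1, P0.5 library 2 or P2 library 1 (adjusted p = 0.125 to 0.280), or with no filter on low values (adjusted p = 0.0802). In fibroblasts Elovl1 had 5.62 and 7.68 at E18.5, 6.92 and 6.36 at P0.5, 7.82 and 13.4 at P2, 6.30 and 7.93 at P7, 7.38 and 7.18 at P28 and 8.86 in the single P56 library. Fibroblast Elovl1 had no called change.

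Elovl5 had normalised values in epithelium of 59.4 and 95.3 at E18.5, 70.9 and 67.6 at P0.5, 39.7 and 36.9 at P2, 46.7 and 47.8 at P7 and 80.3 and 57.9 at P28. Its fall from P0.5 to P2 (log2 change -0.84 ± 0.24, adjusted p = 0.0465) was not called without any 1 of the 4 libraries compared (adjusted p = 0.123 to 0.205), or with no filter on low values (adjusted p = 0.0910). In fibroblasts Elovl5 had 5.90 and 3.84 at E18.5, 3.15 and 4.12 at P0.5, 8.89 and 9.60 at P2, 6.56 and 5.01 at P7, 20.4 and 26.7 at P28 and 7.52 in the single P56 library. The P28 pair was above every other fibroblast library. Fibroblast Elovl5 rose from P7 to P28 (log2 change 1.85 ± 0.38, adjusted p = 0.00179) and from E18.5 to P28 (log2 change 2.07 ± 0.38, adjusted p = 0.000340). Its rise from P0.5 to P2 (log2 change 1.15 ± 0.38, adjusted p = 0.0458) was not called without any 1 of the 4 libraries compared (adjusted p = 0.122 to 0.222), or under 3 other settings (adjusted p = 0.0554 to 0.127), and its fall to P56 (log2 change -1.51 ± 0.47, adjusted p = 0.0194) was not called without P28 library 2 (adjusted p = 0.0878). Fibroblast Elovl6, given above, had no called stage change.

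Acsl3 had normalised values in epithelium of 25.0 and 31.9 at E18.5, 25.3 and 18.1 at P0.5, 23.7 and 30.3 at P2, 29.7 and 22.4 at P7 and 24.7 and 23.3 at P28. Epithelial Acsl3 had no called change. In fibroblasts Acsl3 had 20.2 and 14.5 at E18.5, 11.01 and 14.2 at P0.5, 19.9 and 19.5 at P2, 13.1 and 9.19 at P7, 29.8 and 27.5 at P28 and 10.1 in the single P56 library. Fibroblast Acsl3 was highest at P28. Fibroblast Acsl3 rose from P7 to P28 (log2 change 1.31 ± 0.31, adjusted p = 0.00526), which was not called without P7 library 2 (adjusted p = 0.0502), and fell to P56 (log2 change -1.42 ± 0.38, adjusted p = 0.00815).

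Acsl4 had normalised values in epithelium of 11.03 and 9.78 at E18.5, 12.1 and 14.7 at P0.5, 19.1 and 24.1 at P2, 30.8 and 46.4 at P7 and 32.1 and 53.9 at P28. Libraries from P2 on were above all earlier ones. Epithelial Acsl4 rose from E18.5 to P28 (log2 change 1.90 ± 0.31, adjusted p = 0.000427). In fibroblasts Acsl4 had 0.562 and 0.427 at E18.5, 0.629 and 1.497 at P0.5, 3.20 and 4.94 at P2, 1.84 and 1.67 at P7, 5.61 and 5.98 at P28 and 2.01 in the single P56 library, and it rose over the same interval (log2 change 2.19 ± 0.48, adjusted p = 0.00169), on 3 reads at E18.5 and 34 at P28, a ratio of 11.4 with a counting interval of 3.57 to 57.8.

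Srebf1, whose reads cannot be told apart from those of Rai1, had normalised values in epithelium of 25.0 and 21.8 at E18.5, 12.1 and 9.33 at P0.5, 21.4 and 11.2 at P2, 19.8 and 15.7 at P7 and 20.1 and 17.3 at P28. Its fall across birth (log2 change -1.06 ± 0.32, adjusted p = 0.0401) was not called without any 1 of the 4 libraries compared (adjusted p = 0.0900 to 0.234), or with no filter on low values or with DESeq2 (adjusted p = 0.0606 to 0.0754). In fibroblasts Srebf1 had 7.30 and 6.40 at E18.5, 8.50 and 5.61 at P0.5, 4.98 and 4.11 at P2, 5.25 and 4.18 at P7, 12.7 and 5.58 at P28 and 29.4 in the single P56 library. The P56 library was the highest, and the rise from P28 (log2 change 1.68 ± 0.51, adjusted p = 0.0180) was not called without P28 library 2 (adjusted p = 0.124), or with no filter on low values (adjusted p = 0.0585).

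**Figure D5:**
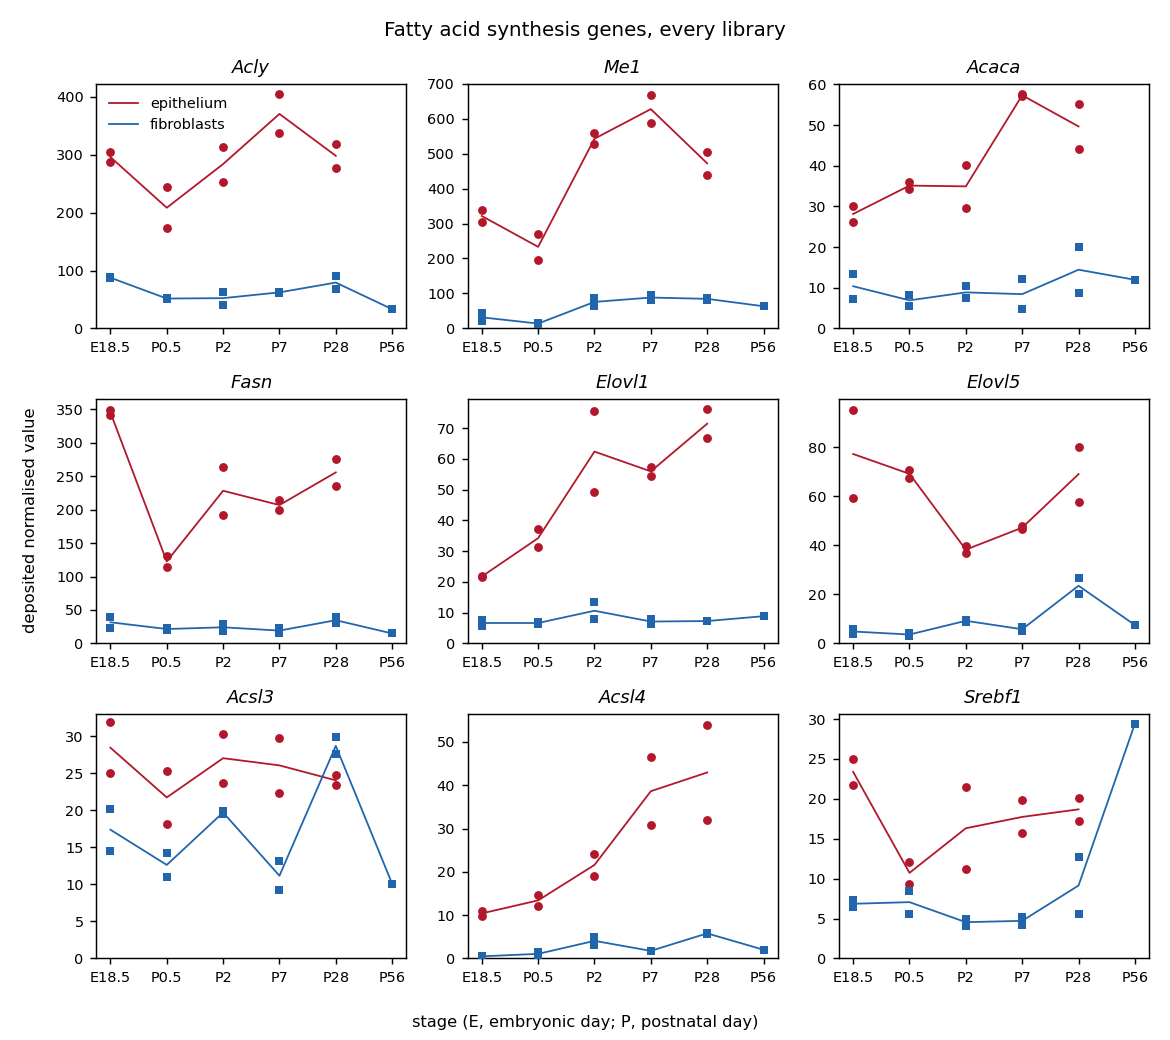
Normalised value of 9 fatty acid arm genes in every library by stage (points, epithelium in red and fibroblasts in blue, with lines through the stage means). Epithelial Fasn is lowest at P0.5 (115 and 130.4), epithelial Me1 steps up between P0.5 and P2, and fibroblast Elovl5 is highest at P28 (20.4 and 26.7). Levels are on a scale of their own in each cell type.

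Whether a change differed between the cell types was tested as an interaction on joint CPM, epithelial change minus fibroblast change. Across birth 2 sterol genes and 1 fatty acid gene differed, where 1.55% of all genes were higher and 1.97% lower: Pmvk (log2 difference 2.14 ± 0.46, adjusted p = 0.0114), Insig1 (log2 difference -1.31 ± 0.27, adjusted p = 0.0105) and Scd2 (log2 difference 0.82 ± 0.22, adjusted p = 0.0452). For Scd2 this was a smaller fall in epithelium. The Pmvk difference was not called without epithelial P0.5 library 1 or fibroblast P0.5 library 1 (adjusted p = 0.0536 to 0.0700). The Insig1 difference across birth was not called without epithelial P0.5 library 1 or fibroblast P0.5 library 2 (adjusted p = 0.0630 to 0.0695). The Scd2 difference was not called without any 1 of the 8 libraries compared (adjusted p = 0.0599 to 0.181), or under 3 other settings (adjusted p = 0.0507 to 0.0662).

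Pmvk rose more in epithelium from P7 to P28 (log2 difference 2.05 ± 0.46, adjusted p = 0.00635), where 3.12% of all genes were higher and 5.48% lower. Hsd17b7 (log2 difference -1.37 ± 0.38, adjusted p = 0.0257), Elovl5 (log2 difference -1.38 ± 0.39, adjusted p = 0.0323) and Acsl3 (log2 difference -1.45 ± 0.39, adjusted p = 0.0211) changed less in epithelium than in fibroblasts, or the opposite way. The Hsd17b7 difference was not called without epithelial P7 library 1, epithelial P28 library 2, fibroblast P7 library 2, fibroblast P28 library 1 or fibroblast P28 library 2 (adjusted p = 0.0506 to 0.141). The Elovl5 difference from P7 was not called without epithelial P7 library 1, epithelial P7 library 2, epithelial P28 library 2, fibroblast P7 library 2 or fibroblast P28 library 2 (adjusted p = 0.0831 to 0.133), or with a pseudocount of 5 (adjusted p = 0.0573). The Acsl3 difference was not called without epithelial P7 library 1, epithelial P28 library 1, epithelial P28 library 2, fibroblast P7 library 2 or fibroblast P28 library 1 (adjusted p = 0.0598 to 0.108). Of 7 fibroblast markers 4 were lower in the epithelial change over this interval, and their part was not tested.

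From E18.5 to P28, 4 sterol genes were higher in the epithelial change (Pmvk, Mvd, Fdps and Tm7sf2) and Sc5d and Insig1 lower, and in the fatty acid arm Elovl1 and Elovl6 were higher and Elovl5 lower. All genes had 5.23% higher and 9.85% lower. Pmvk (log2 difference 2.07 ± 0.46, adjusted p = 0.00349), Fdps (log2 difference 2.63 ± 0.54, adjusted p = 0.00206) and Elovl5 (log2 difference -2.29 ± 0.39, adjusted p = 0.000373) passed the threshold in every alternative and without any 1 library. Mvd (log2 difference 2.30 ± 0.65, adjusted p = 0.0185) was not called without epithelial E18.5 library 2, epithelial P28 library 2, fibroblast E18.5 library 1 or fibroblast P28 library 1 (adjusted p = 0.0704 to 0.104), or with a pseudocount of 5 (adjusted p = 0.0567). Tm7sf2 (log2 difference 1.39 ± 0.43, adjusted p = 0.0328) was not called without epithelial E18.5 library 1, epithelial E18.5 library 2, epithelial P28 library 1, epithelial P28 library 2, fibroblast E18.5 library 2 or fibroblast P28 library 2 (adjusted p = 0.0512 to 0.121), or with no filter on low values (adjusted p = 0.0509). Sc5d (log2 difference -1.48 ± 0.49, adjusted p = 0.0467) was not called without epithelial E18.5 library 1, epithelial E18.5 library 2, epithelial P28 library 1, epithelial P28 library 2, fibroblast E18.5 library 2, fibroblast P28 library 1 or fibroblast P28 library 2 (adjusted p = 0.0562 to 0.191), or under 5 other settings (adjusted p = 0.0591 to 0.163). Insig1 (log2 difference -0.998 ± 0.27, adjusted p = 0.0167) was not called without epithelial E18.5 library 2 or fibroblast P28 library 1 (adjusted p = 0.0564 to 0.0568).

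Elovl1 (log2 difference 1.46 ± 0.41, adjusted p = 0.0177) was not called without epithelial P28 library 1 or fibroblast E18.5 library 2 (adjusted p = 0.0633 to 0.0737). Elovl6 (log2 difference 2.26 ± 0.67, adjusted p = 0.0269) was not called without epithelial E18.5 library 2, epithelial P28 library 1, fibroblast E18.5 library 2 or fibroblast P28 library 1 (adjusted p = 0.0830 to 0.140), or with no filter on low values or with DESeq2 (adjusted p = 0.0509 to 0.0526). In epithelium Elovl6 rested on 1 read over both libraries at E18.5, so its fitted difference depends on the pseudocount. Between E18.5 and P28 the type 2 markers had 6 of 10 higher and 1 lower in the epithelial change, and the fibroblast markers 6 of 7 lower. Their part in these differences was not tested.

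Other genes of the pathways, from lists of 16 sterol and 25 fatty acid genes, were read beside the members. Over 5 stages 8 of 16 tested sterol genes were higher in epithelium and 3 lower, and 7 of 18 fatty acid genes were higher and 1 lower, where 32.5% of all genes were higher and 29.9% lower. Soat1, which esterifies cholesterol (log2 difference 3.64 ± 0.11, adjusted p = 9.31e-18), Npc2, which carries cholesterol out of lysosomes (log2 difference 3.88 ± 0.12, adjusted p = 3.67e-17), and Hacd3, a dehydratase of fatty acid elongation (log2 difference 2.70 ± 0.10, adjusted p = 3.44e-16), were higher in epithelium. Nr1h3, which encodes the sterol-sensing receptor LXR alpha (log2 difference -2.10 ± 0.08, adjusted p = 1.04e-15), Abca1, a cholesterol exporter (log2 difference -1.13 ± 0.11, adjusted p = 7.18e-09), Mbtps1, the protease that starts SREBP cleavage (log2 difference -0.59 ± 0.14, adjusted p = 0.000884), and Mlxip, a glucose-sensing transcription factor (log2 difference -1.06 ± 0.08, adjusted p = 1.05e-10), were lower in epithelium, opposite to most members.

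Across birth in epithelium 3 of 15 other sterol genes rose and 1 fell, and 4 of 17 fatty acid genes fell, where 7.24% of all genes rose and 7.09% fell. Acat1, the mitochondrial acetoacetyl-CoA thiolase, rose (log2 change 1.64 ± 0.23, adjusted p = 0.000534), from normalised values of 25.6 and 25.9 at E18.5, 80.8 and 84.6 at P0.5, 21.0 and 21.1 at P2, 65.2 and 59.6 at P7 and 56.4 and 38.3 at P28, and its P0.5 pair was above the E18.5 pair. Npc1, which works with Npc2, rose too (log2 change 1.46 ± 0.24, adjusted p = 0.00172), and Fads1, a desaturase of polyunsaturated fatty acids, fell (log2 change -1.64 ± 0.25, adjusted p = 0.000980). Across birth in fibroblasts 2 of 14 rose (Acat1 and Npc1) and 2 fell (Abca1 and Nr1h3) in the sterol list, and 2 of 17 fell (Fads1 and Hacd3) in the fatty acid list, where 8.05% of all genes rose and 7.34% fell. Fibroblast Abca1 fell across birth (log2 change -1.45 ± 0.23, adjusted p = 0.000322) and rose from P7 to P28 (log2 change 2.02 ± 0.23, adjusted p = 4.12e-06). Fibroblast Soat1 rose from P0.5 to P2 (log2 change 2.14 ± 0.32, adjusted p = 0.000138) and fell to P7 (log2 change -2.26 ± 0.32, adjusted p = 0.000179). In all other stage comparisons the sterol list had 2 to 5 genes called and the fatty acid list at most 5, with medians of -0.39 to 0.44. In those comparisons 1.55% to 18.7% of all genes rose and 2.17% to 19.1% fell.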

How the data were processed

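RNA of 21 sorted mouse lung samples was measured with 3'SAGE-seq, in 10 epithelial and 11 fibroblast libraries. The deposited tables give 1 normalised signal value per gene and library. The submitters' processing notes name Bowtie2 2.2.5, R 3.4.0 and mm10. For tag counting and scaling, the method was not given in the sources used. From the values, each deposited signal is a whole number of reads times a constant of its library (100% within 0.01 of a read), which gave recovered read counts and a depth of 2146071 to 5729829 reads.

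The design had assumed normalised values, so the test remained limma (3.58.1, in R 4.3.3), with its mean-variance trend option, applied to log2(value + 1) of genes at 3 or more in at least 2 libraries. Each stage and cell type had its own mean, with 5 residual degrees of freedom within each cell type and 10 in the joint fit. The P56 library was assumed to vary like the rest. Cell types were compared on joint CPM: recovered reads over the 20004 shared genes with TMM factors of edgeR (4.0.16), per 1e+06 reads. Alternatives were pseudocounts of 0.5 and 5, no filter and a filter of 10, edgeR and DESeq2 (1.42.0) on recovered reads, other scalings, the replicate number as a block, and each library left out. The fits were tested on simulated data.

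The members and all lists were chosen with earlier results of these data known. Values in every library are given for 28 members, namely 18 pathway gates and regulators fixed by name and any other member with 1 of the 3 smallest p-values of its arm in a comparison. Of the other pathway genes, up to 4 with the smallest p-values per cell type are named, and those of opposite sign. Promoters came from RefSeq (GRCm38.p6) and overlaps from GENCODE gene models of GRCm38.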

Additional observations from a re-analysis of the deposited data

Results flagged for a closer look

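The changes of 12 genes over time differed between epithelium and fibroblasts by the interaction test (limma, joint CPM on the log2(CPM + 1) scale, epithelial change minus fibroblast change, 2 libraries per group), and they are listed here because a difference between the cell types was tested and called. From E18.5 to P0.5 the differences were 2.14 for Pmvk, -1.31 for Insig1 and 0.82 for Scd2. From P7 to P28 the value was 2.05 for Pmvk, -1.37 for Hsd17b7, -1.38 for Elovl5 and -1.45 for Acsl3. Over E18.5 to P28 the interaction was 2.07 for Pmvk, 2.30 for Mvd, 2.63 for Fdps, 1.39 for Tm7sf2, -1.48 for Sc5d and -1.0 for Insig1 in the sterol arm. In the fatty acid arm it was 1.46 for Elovl1, -2.29 for Elovl5 and 2.26 for Elovl6. Elovl6 entered this test through its fibroblast levels and had 1 read in epithelium at E18.5. Pmvk from P7 to P28 and Pmvk, Fdps and Elovl5 over E18.5 to P28 passed the threshold without any 1 library and in every alternative.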

How the results depend on the processing

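Of 246 called changes and differences of single members, 206 passed the threshold under every alternative that kept all libraries and tested them. Of the 246, 167 did so also without any 1 library, and 0 changed direction. A call that an alternative did not test was not counted as lost there. Among alternatives with all libraries, no filter on low values ended 35 of 246 calls, DESeq2 13 of 245, edgeR 6, pseudocounts of 5 and 0.5 ended 4 and 3, TMM scaling within a cell type 3 of 74, median-ratio scaling of the cell types 2 of 172, the deposited values as they stand 1 of 172 and the filter of 10 ended 0 of 239. With no filter more genes were tested, and the count of members called went from 10 to 3 in fibroblasts across birth, from 2 to 1 in fibroblasts from P2 to P7 and from 7 to 3 from P7 to P28. In epithelium from P2 to P7 the count was 1, and it was 2 with a pseudocount of 5, with the filter of 10, with DESeq2 and with TMM scaling, and 3 with edgeR. From P7 to P28 in epithelium it was 1, and 2 with DESeq2. The cause of these moves was not tested. With 1 library left out the count ranged from 2 to 6 in epithelium from P0.5 to P2 (7 with all), with 2 without P0.5 replicate 2, 3 without P0.5 replicate 1 and 4 without P2 replicate 1. It was 1 to 2 from P7 to P28 (1 with all), with 2 without P7 replicate 1, and 7 to 10 from E18.5 to P28 (12 with all), with 7 without E18.5 replicate 1. In fibroblasts it was 4 to 7 across birth (10 with all), with 4 without either P0.5 library and 6 without E18.5 replicate 2. From P0.5 to P2 it was 2 without either P0.5 library and 3 without either P2 library (6 with all). From P2 to P7 it was 0 to 2 (2 with all), with 0 without P2 replicate 2 or P7 replicate 2 and 1 without P2 replicate 1, and from P7 to P28 it was 4 to 5 (7 with all), with 4 without P7 replicate 2 or either P28 library. For the difference between cell types it was 0 to 2 across birth (3 with all), with 0 without epithelial P0.5 replicate 1 and 1 without either fibroblast P0.5 library. From P7 to P28 that count was 1 to 4 (4 with all), with 1 without epithelial P7 replicate 1, epithelial P28 replicate 2 or fibroblast P7 replicate 2 and 2 without fibroblast P28 replicate 1. From E18.5 to P28 it was 4 to 10 (9 with all), with 4 without epithelial E18.5 replicate 2 and 5 without epithelial P28 replicate 1 or fibroblast E18.5 replicate 2. A group left with 1 library was assumed to vary like the others, and the single P56 library could not be left out. Same-numbered libraries did not deviate together (correlations of their deviations from the group means of -0.06 to 0.07 in epithelium, -0.04 to 0.04 in fibroblasts and -0.06 to 0.10 jointly, none over 0.1), so the numbers do not pair the samples. With the replicate block 5 of 246 calls ended, namely Elovl5 from P0.5 to P2 in epithelium (adjusted p = 0.0544) and in fibroblasts (0.0531), fibroblast Fasn from P28 to P56 (0.0607), Mvd between cell types at P7 (0.0545) and the Sc5d difference between cell types over E18.5 to P28 (0.0532), and the count across birth was 8 in place of 7 in epithelium. At this depth fibroblast Mvd, Idi1, Msmo1 and Acsl4, epithelial Elovl6 and Dhcr7 in both cell types rest on few reads, which limits the changes that could be detected in them.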
